A study of Arabidopsis thaliana with 28 samples.

Results

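The transcripts described here are the 104 ATH1 probe sets whose signal was higher at 6 h than at 0.25 h after a short drying treatment in both shoots and roots of Arabidopsis thaliana. A probe set is a group of short probes on this array, made for 1 transcript or for several similar ones. They were chosen by the measured signals at these times. The mean signal of the 2 arrays of a group was raised to 20 where it was lower, and a probe set was selected if its 6 h mean was at least 2 times its 0.25 h mean and at least 50 in each organ. Of 22746 probe sets, 942 met this in shoots and 397 in roots, so the 104 members were 0.457% of all, 11.0% of the shoot set and 26.2% of the root set. The annotation used here gives 1 gene for 42 members (41 genes, since AT1G31710 has 2 probe sets) and several genes for 4, and the other 58 are named by their probe set.

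All groups were of the ecotype Col-0, grown at 24 °C with 16 h days on Murashige and Skoog medium. At 16 days of age, and 3 h into the light, the plants lost 10% of their fresh weight in a stream of dry air lasting 15 min and then stood in closed vessels, so every group carried the treatment, and untreated plants were not analysed here. Shoots and roots were measured at 0.25, 0.5, 1, 3, 6, 12 and 24 h, with 2 arrays in each of the 14 groups. Time after drying and time of day cannot be told apart. The last group was taken at about the same hour of the day as the first. Whether both arrays of a group stem from different cultures is not in the labels. The tests below therefore reflect the spread of these arrays alone, and that spread may be technical.

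Water loss acts on plant cells through lower turgor and through abscisic acid, and it raises transcripts of small protective proteins that also respond to cold and salt. A plant kept in a closed vessel also passes through its daily cycle, in which the circadian clock, light and the sugar supply each drive large groups of transcripts, and low sugar is known to raise genes for the breakdown of amino acids and of the cell's own proteins. Jasmonates are a further group of stress hormones, made after wounding and tissue damage, that induce both defence proteins and the enzymes that inactivate the hormone.

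Replicate arrays correlated at 0.978 to 0.985 (Pearson, log2 signal) in 12 groups, and at 0.961 and 0.964 in shoots at 0.5 h and 1 h. Each of those 4 shoot arrays was most like an array of the other time, so the labels of these times are uncertain, and the tests use the mean of 0.5 h and 1 h (called early). Taking the 4 arrays as 1 group gave the same count of members higher in the first test below, 64, and 78 of the 78 calls on named genes that do not use these arrays were kept without them. Pooling leaves the early mean unchanged, and the 78 calls compare other times. Both results therefore bear only on the estimate of the spread and say nothing on whether the labels are right. Of the organ markers, 3 of 16 for green tissue (LHCB4.1, RCA and PRK) and 3 of 14 for roots (PYK10, EXPA7 and EXPA18) had a probe set with 1 gene, and all 6 separated the organs. Summed signals of the green markers were 13260 to 18647 in shoots and 172 to 532 in roots, and those of the root markers 431 to 2046 in shoots and 3120 to 4106 in roots. In such whole-organ RNA, fewer cells of a type and less RNA per cell cannot be told apart.

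The 6 h increase, which chose the members and so is described without a test, was mostly larger in shoots. The median ratio of 6 h to 0.25 h was 3.71 in shoots, from 2.01 to 51.2, and 2.70 in roots, from 2.002 to 23.3. The median over all probe sets was 1 in each organ. The shoot ratio was the larger for 68 members and the root ratio for 36. At least 4-fold was reached by 43 members in shoots, by 22 in roots and by 12 in both. Both 6 h arrays lay above both 0.25 h arrays in both organs for 103 members. The exception was AT5G26270, whose shoot signals were 52 and 54.7 at 0.25 h and 53.2 and 555 at 6 h, and whose 6 h arrays in roots read 566 and 53.8. The rule used these same arrays, so the separation follows largely from it, and it was not counted over all probe sets. In 44 members both 6 h arrays were at least 2-fold above both 0.25 h arrays in both organs. In 23 members the shoot mean at 0.25 h lay under the floor of 20, as it did for 9 in roots, so their ratios are set by the floor.

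**Figure D1:**
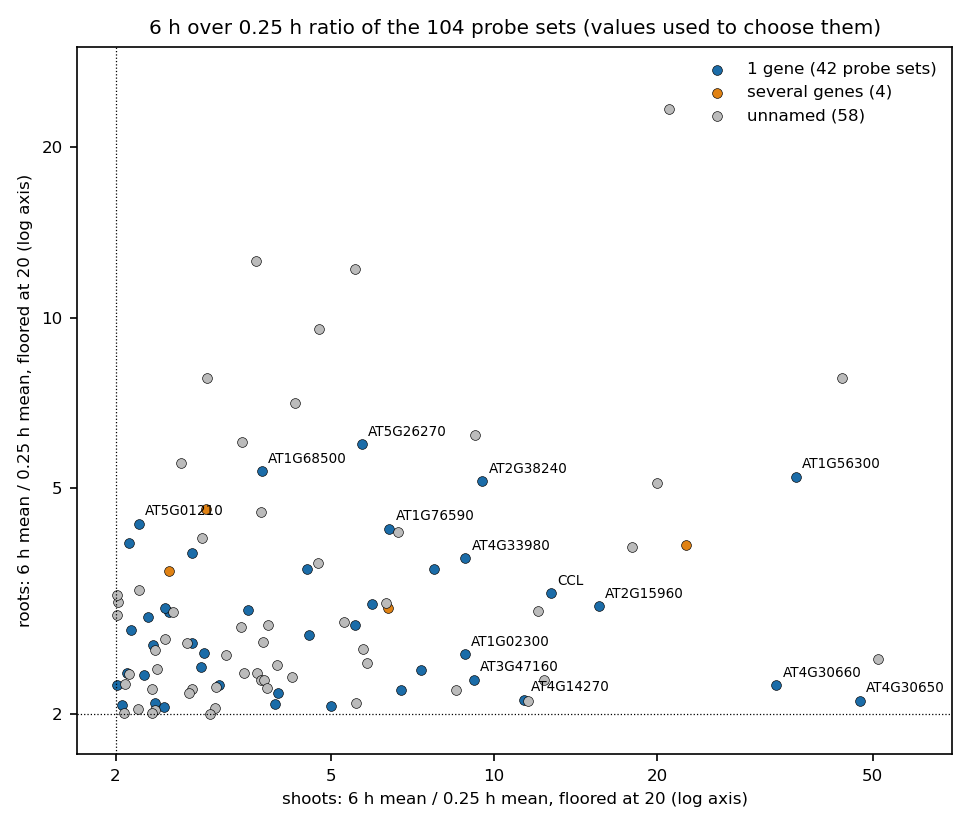
Ratio of the 6 h mean to the 0.25 h mean signal of each of the 104 probe sets, with shoots on the horizontal and roots on the vertical log axis, means raised to at least 20. Dotted lines mark the 2-fold limit, and colours mark probe sets with 1 gene (42), several genes (4) or no name (58). Most points lie at low ratios in both organs and spread further along the shoot axis, with AT4G30650 at 47.3 in shoots and 2.11 in roots.

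Members nearest the limit were set by their root ratio. Just inside lay 259544_at, 259757_at and 259911_at, with root ratios of 2.002, 2.01 and 2.01 and shoot ratios of 2.99, 2.08 and 2.34. Just outside lay 259990_s_at, 253073_at and 264396_at, with root ratios of 1.995, 1.99 and 1.98 and shoot ratios of 4.71, 11.9 and 2.17.

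Over the 7 times the members' median signal in shoots was 48.3 at 0.25 h, 68.1 at 0.5 h, 71.6 at 1 h, 158.9 at 3 h, 218.7 at 6 h, 151.5 at 12 h and 69.8 at 24 h. In roots the same medians were 77.8, 98.8, 121, 180, 243.7, 126.7 and 98.8. The highest median was at 6 h in both organs, with 3 h next in each. Among single members the highest group mean fell at 6 h for 55 in shoots, at 3 h for 23 and at 12 h for 23. In roots it fell at 6 h for 78, at 3 h for 10, and at 1 h and at 12 h for 7 each.

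**Figure D2:**
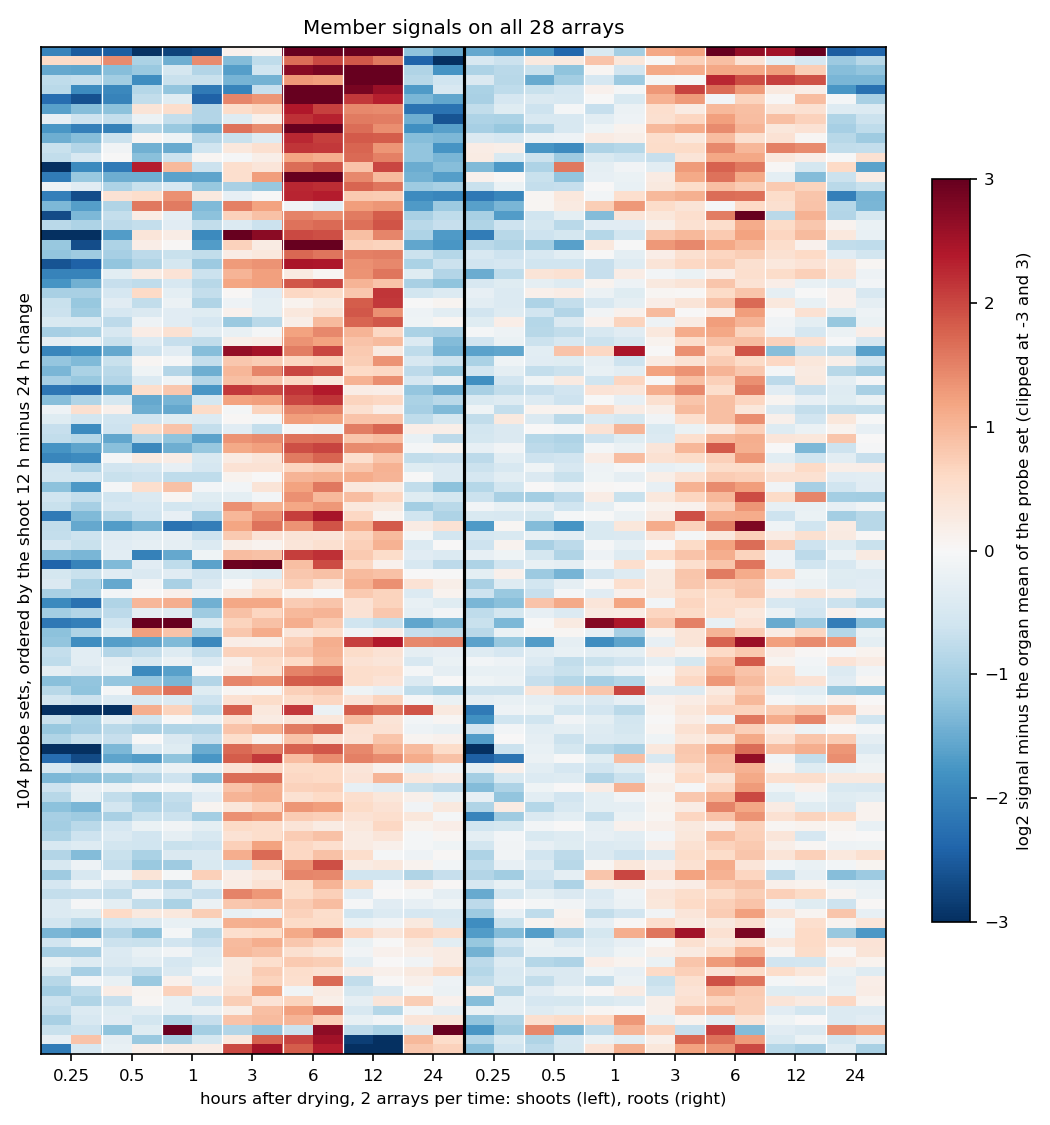
Signals of the 104 members (lines, ordered by the shoot difference between 12 h and 24 h) on all 28 arrays (columns, 2 per time, shoots left and roots right), as log2 signal minus the member's mean in that organ, clipped at -3 and 3. Most members are red at 6 h in both organs, which the rule required. In shoots many are also red at 3 h and 12 h and blue at 24 h, and the root colours are paler.

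The tests used the 20 arrays at the 5 times that did not choose the members. Counts with an array left out are given below without the share of all probe sets called in the same fit. Shifts in these counts are therefore not read as particular to the members. At 3 h against early in shoots, 64 of 104 members were higher and 0 lower by limma at an adjusted p of 0.05, beside 9.6% of all probe sets higher and 9.92% lower. The 0 lower compares with 2 lower at an unadjusted p of 0.05. The members' median log2 difference was 1.02, against -0.03 over all probe sets. In roots the same comparison gave 36 higher and 1 lower, beside 2.15% and 2.24% of all, with a median of 0.67 against 0.07. The root count rests on the second 3 h root array: without it 6 members were higher, and 14 of the 15 root calls on genes with a name were lost, that of AT4G30660 being kept.

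At 12 h against 24 h in shoots, 53 members were higher and 2 lower, beside 7.04% and 6.85% of all probe sets. The median log2 difference was 1.06, against -0.07 over all. In roots 15 were higher and 0 lower by limma, beside 0.523% and 0.484% of all, and 1 was lower at an unadjusted p of 0.05. The members' median there was 0.24 and the median of all 0.01. That root count fell to 7 without either the first or the second 12 h array, to 7 without the first 24 h array and to 5 without the second.

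In shoots 26 members were higher in both of these comparisons, 36 at 3 h alone and 27 at 12 h alone, and 13 passed in neither. Of all probe sets, 2.4%, 6.44%, 3.88% and 71.7% fell in these classes. The remaining 2 members, the unnamed 252415_at and 253161_at, were higher at 3 h and lower at 12 h, as were 0.756% of all. The same probe sets were higher in both organs in 24 cases at 3 h and in 13 at 12 h, beside 0.813% and 0.211% of all probe sets. Without the second 3 h root array the first of theses was 4. The second was 6, 7, 6 and 5 without the first or second 12 h root array or the first or second 24 h root array.

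Against early, 25 members were higher and 13 lower in shoots at 24 h, beside 6.08% and 5.82% of all probe sets, with a median of 0.15 against 0.07. Roots had 12 higher and 10 lower, beside 4.07% and 4.55%, with a median of 0.07, the same as over all. These counts moved with single arrays. Without the first 24 h array of an organ they were 10 and 5 in shoots and 1 and 3 in roots. Without the second they were 11 and 1 in shoots, and 4 were lower in roots. In shoots 8 were lower without the second 0.5 h array and 7 without the first 1 h array. In roots 5 were higher without the second 0.5 h array and 6 without the first 1 h array. This comparison shares its early arrays with that at 3 h and its 24 h arrays with that of 12 h against 24 h. Between 3 h and 12 h, 23 members were higher at 12 h and 20 lower in shoots, beside 6.32% and 5.15%, with 15 higher without the second 3 h or the second 12 h shoot array and 11 lower without the former. In roots 4 were higher and 10 lower, beside 2.53% and 2.08%, and 0 were lower without the second 3 h or the second 12 h root array.

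**Figure D3:**
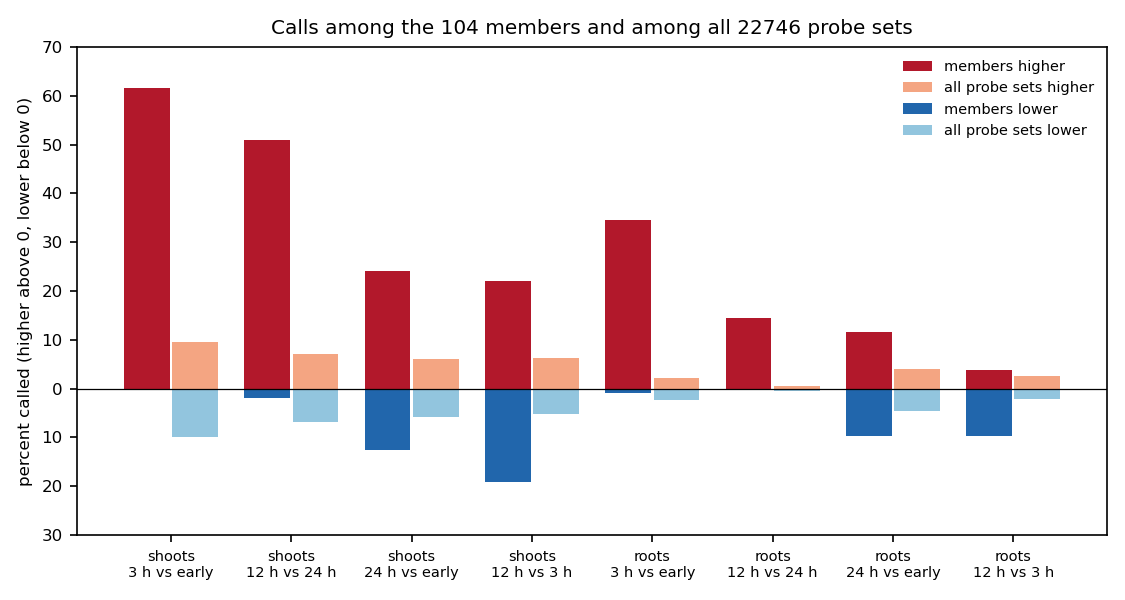
Percent of the 104 members and of all 22746 probe sets called higher (bars above 0) or lower (bars below 0) by limma in 8 comparisons of times that did not choose the members, where early is the mean of 0.5 h and 1 h. The member bars for higher at 3 h and at 12 h stand at 61.5% and 51.0% in shoots and at 34.6% and 14.4% in roots, beside 9.6%, 7.04%, 2.15% and 0.523% of all.

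Of the 3 largest shoot ratios among members with 1 gene, 47.3 and 33.1 belonged to AT4G30650 and AT4G30660, which lie next to each other among protein-coding genes. Both encode small membrane proteins of the family named for its response to low temperature and salt. Shoot signals of AT4G30650 (253627_at) were 21.4 and 16.6 at 0.25 h, 26.5 and 66.1 at 0.5 h, 87 and 19.3 at 1 h, 315 and 284 at 3 h, 897 and 995 at 6 h, 492 and 568 at 12 h and 41.8 and 36.7 at 24 h. The arrays at 3 h, 6 h and 12 h all lay above every other shoot array. Its shoot log2 difference was 2.78 (SE 0.46, adjusted p = 0.000657) at 3 h against early and 3.69 (SE 0.53, adjusted p = 0.000343) at 12 h against 24 h. Both calls held when each array was left out in turn. In roots it read 52.9 and 73.8 at 0.25 h, 77.5 and 74.6 at 0.5 h, 104 and 76.4 at 1 h, 220 and 260 at 3 h, 99.2 and 169 at 6 h, 108 and 202 at 12 h and 102 and 53.2 at 24 h. There 3 h stood above the rest, and later arrays overlapped the early ones. The difference at 3 h, 1.52 (SE 0.46, adjusted p = 0.0851), did not pass.

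AT4G30660 (253581_at) passed in both organs at 3 h. Its shoot signals rose from 23.2 and 25.9 at 0.25 h over 63.9 and 79.1 at 0.5 h and 103 and 68.9 at 1 h to 362 and 379 at 3 h and 826 and 801 at 6 h, and were 387 and 407 at 12 h and 76.2 and 94.4 at 24 h. Root signals were 131 and 138 at 0.25 h, 130 and 129 at 0.5 h, 121 and 149 at 1 h, 258 and 304 at 3 h, 329 and 277 at 6 h, 245 and 264 at 12 h and 249 and 204 at 24 h. Replicate arrays lay close together in both organs, and roots at 3 h to 24 h lay above all earlier root arrays. The log2 difference at 3 h was 2.23 (SE 0.16, adjusted p = 4.9e-07) in shoots and 1.08 (SE 0.16, adjusted p = 0.00129) in roots. Each was kept with any 1 array left out. At 12 h against 24 h it was 2.20 (SE 0.18, adjusted p = 1.85e-06) in shoots and 0.17 (SE 0.18, adjusted p = 0.858) in roots. The root change was smaller than the shoot change in both comparisons, the root minus shoot difference being -1.15 (SE 0.22, adjusted p = 0.00623) and -2.03 (SE 0.25, adjusted p = 0.000378).

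A further member of this kind, 246481_s_at, is shared by KIN2 and KIN1, adjacent genes for small hydrophilic proteins induced by cold and abscisic acid, and cannot be assigned to either. Its shoot arrays read 156 and 148 at 0.25 h, 3092 and 2815 at 3 h, 3176 and 3683 at 6 h and 315 and 252 at 24 h. At the doubtful times it read 230 and 1019 at 0.5 h and 1239 and 210 at 1 h, so that the second 0.5 h and the first 1 h array were the high ones. The log2 difference at 3 h was 2.56 (SE 0.56, adjusted p = 0.00511) in shoots, with an adjusted p of 0.0511 without the first 3 h shoot array. Roots read 480 and 565 at 0.25 h, 2034 and 2562 at 3 h and 1358 and 2797 at 6 h, and their difference at 3 h, 1.39 (SE 0.56, adjusted p = 0.216), did not pass. Of 5 genes of the cold and dehydration list with a probe set of their own, only AT4G30650 was a member. At 3 h against early 3 of the 5 were higher in shoots and 0 in roots by limma, beside 9.6% and 2.15% of all probe sets. The list's median log2 difference was 2.44 in shoots and 0.44 in roots.

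Genes tied to the circadian clock were represented by AT4G33980 and CCL. AT4G33980 (253322_at), which encodes a protein known to link the clock with cold responses, was near the bottom of the scale in shoots until 3 h, with 3.93 and 0.836 at 0.25 h, 0.776 and 3.77 at 0.5 h, 2.59 and 0.428 at 1 h and 0.698 and 4.44 at 3 h. It then read 193 and 161 at 6 h, 72.8 and 60.9 at 12 h and 1.26 and 5.48 at 24 h. The 6 h and 12 h arrays stood far above the other 10. The shoot log2 difference between 12 h and 24 h was 3.81 (SE 0.50, adjusted p = 0.000148). Root arrays of AT4G33980 read 12.4 and 14.3 at 0.25 h, 15.3 and 17.5 at 0.5 h, 28.2 and 24.6 at 1 h, 66 and 110 at 3 h, 85.5 and 65.1 at 6 h, 31.8 and 29.9 at 12 h and 6.2 and 3.89 at 24 h. At 3 h against early the difference was 1.94 (SE 0.43, adjusted p = 0.019) in roots and 0.19 (SE 0.43, adjusted p = 0.827) in shoots. The difference between the organs, 1.75 (SE 0.61, adjusted p = 0.106), did not pass. The root calls were lost with 1 array left out, with an adjusted p of 0.264 at 3 h without the second 3 h root array and of 0.307 at 12 h without the second 24 h root array. The latter call was lost with any of 12 arrays left out.

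CCL (AT3G26740, 257832_at), whose transcript is known for clock-controlled stability, rose in shoots from 330 and 376 at 0.25 h to 2489 and 2644 at 3 h and 4347 and 4645 at 6 h. It then read 3014 and 2978 at 12 h and 1085 and 1197 at 24 h. Root signals were far lower, at 76.7 and 85.5 at 0.25 h, 120 and 184 at 3 h, 336 and 194 at 6 h, 92 and 35.2 at 12 h and 58.9 and 89.6 at 24 h. No root array reached the lower of the 3 h shoot arrays. The shoot log2 difference at 3 h was 2.62 (SE 0.30, adjusted p = 2.69e-05). In roots it was 1.16 (SE 0.30, adjusted p = 0.0395), with an adjusted p of 0.419 without the second 3 h root array, and lost with any of 12 arrays left out. Roots were lower than shoots over the 5 times tested, with a root minus shoot log2 difference of -3.79 (SE 0.15, adjusted p = 5.39e-12).

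Of the 3 evening clock genes with a probe set of their own, GI and COR27 were no members, GI with a root ratio of 1.51 and COR27 with a 6 h root mean of 47.4, each under a limit of the rule. No probe set with 1 gene measured the morning clock genes listed.

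Members that help proteins fold were AT1G56300, a DnaJ-domain co-chaperone, and AT2G21130, a cyclophilin, an enzyme that turns the bonds before proline residues. AT1G56300 (256221_at) read 18.9 and 14.9 at 0.25 h, 15.1 and 35 at 0.5 h, 30.2 and 22.9 at 1 h, 214 and 185 at 3 h, 702 and 740 at 6 h, 221 and 183 at 12 h and 17.6 and 20.6 at 24 h in shoots. Its root arrays read 23 and 20.5 at 0.25 h, 25 and 33.4 at 0.5 h, 43.6 and 51.2 at 1 h, 95.1 and 105 at 3 h, 130 and 97.7 at 6 h, 60.3 and 64.6 at 12 h and 23.1 and 27.1 at 24 h. Both organs had their highest mean at 6 h, with 1 root array of 6 h within the 3 h range, and by 24 h were near the 0.25 h range. In shoots the log2 difference was 2.91 (SE 0.24, adjusted p = 1.61e-06) at 3 h against early and 3.28 (SE 0.28, adjusted p = 2.53e-06) at 12 h against 24 h. The root values were 1.39 (SE 0.24, adjusted p = 0.00424) and 1.26 (SE 0.28, adjusted p = 0.0477), with an adjusted p of 0.0726 without the second 3 h root array and of 0.257 without the second 12 h root array. The latter was lost with any of 16 arrays left out. The root change was the smaller, with a root minus shoot difference of -2.02 (SE 0.39, adjusted p = 0.00873) at 12 h against 24 h.

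AT2G21130 (264019_at) differed from the co-chaperone in shoots by staying low to 3 h, with 49.9 and 45.6 at 0.25 h, 69.2 and 52 at 1 h and 66.6 and 55.8 at 3 h, before 279 and 289 at 6 h, 280 and 330 at 12 h and 49.7 and 54.1 at 24 h. The root arrays read 42 and 51.1 at 0.25 h, 90.4 and 111 at 3 h, 115 and 176 at 6 h, 119 and 141 at 12 h and 85.5 and 68.9 at 24 h. The shoot log2 difference between 12 h and 24 h was 2.51 (SE 0.17, adjusted p = 3.71e-07) and the root one 0.74 (SE 0.17, adjusted p = 0.0649). The root minus shoot difference of these changes was -1.76 (SE 0.25, adjusted p = 0.000916). At 3 h against early it was 0.12 (SE 0.15, adjusted p = 0.655) in shoots and 0.82 (SE 0.15, adjusted p = 0.00638) in roots, the latter with an adjusted p of 0.133 without the second 3 h root array.

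Enzymes that break down amino acids, amines and formate made up 6 of the 41 genes. At 3 h against early 5 of the 6 rose in shoots and 2 in roots, beside 9.6% and 2.15% of all probe sets. Between 24 h and 12 h, 2 were higher at 12 h in shoots and 1 in roots, beside 7.04% and 0.523%. The group was drawn up after these values were seen. MCCA (AT1G03090, 263118_at), a subunit of the methylcrotonyl-CoA carboxylase of leucine breakdown, had a narrow peak in both organs. In shoots it read 86 and 108 at 0.25 h, 111 and 115 at 0.5 h, 122 and 126 at 1 h, 163 and 270 at 3 h, 341 and 432 at 6 h, 103 and 78.3 at 12 h and 135 and 119 at 24 h. Roots gave 145 and 137 at 0.25 h, 128 and 136 at 0.5 h, 174 and 169 at 1 h, 189 and 305 at 3 h, 334 and 282 at 6 h, 132 and 114 at 12 h and 125 and 126 at 24 h. Both 12 h arrays of each organ lay below both 3 h arrays. The log2 difference from 3 h to 12 h was -1.21 (SE 0.22, adjusted p = 0.0027) in shoots and -0.96 (SE 0.22, adjusted p = 0.0255) in roots. The shoot call held with any 1 array left out, and the root one had an adjusted p of 0.254 without the second 3 h root array. The shoot rise at 3 h, 0.82 (SE 0.19, adjusted p = 0.00785), also rested on the second 3 h array there (adjusted p = 0.203 without it).

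AT4G33150 (253373_at), the enzyme that starts lysine breakdown, had early shoot signals of 38.7 and 37.4 and 35.6 and 36.7, then 95.8 and 136 at 3 h, 89.7 and 82.2 at 6 h, 68.9 and 64 at 12 h and 54.8 and 52.6 at 24 h. Roots gave 111 and 151 at 0.25 h, 181 and 225 at 3 h, 262 and 281 at 6 h and 145 and 149 at 24 h. Its rise at 3 h passed in both organs, at 1.57 (SE 0.13, adjusted p = 1.32e-06) in shoots and 0.66 (SE 0.13, adjusted p = 0.00786) in roots. The root call had an adjusted p of 0.168 without the second 3 h array. The root rise was the smaller, with a root minus shoot difference of -0.91 (SE 0.18, adjusted p = 0.00748).

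AT5G39410 (249456_at), of the saccharopine dehydrogenase family, kept a higher signal to 12 h. Its shoot arrays read 28.2 and 31 at 0.25 h, 78.5 and 84.1 at 3 h, 226 and 209 at 6 h, 196 and 197 at 12 h and 42.5 and 36.4 at 24 h, and the root ones 91.3 and 82.8, 148 and 179, 201 and 215, 177 and 196 and 102 and 86.9. No 3 h, 6 h or 12 h array of an organ overlapped its 0.25 h or 24 h arrays. Between 12 h and 24 h the log2 difference was 2.26 (SE 0.14, adjusted p = 1.29e-07) in shoots and 0.97 (SE 0.14, adjusted p = 0.0034) in roots. The root call had an adjusted p of 0.0605 without the second 24 h root array.

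FDH (AT5G14780, 246595_at), the mitochondrial formate dehydrogenase, read 284 and 384 at 0.25 h, 531 and 700 at 3 h, 726 and 951 at 6 h, 656 and 616 at 12 h and 346 and 420 at 24 h in shoots. Root arrays read 52.6 and 50.6 at 0.25 h, 46.5 and 38.1 at 3 h, 108 and 204 at 6 h, 59.5 and 53 at 12 h and 74.8 and 67.2 at 24 h. There 6 h stood alone. Shoots were higher at 12 h than at 24 h by 0.73 (SE 0.16, adjusted p = 0.00766), with an adjusted p of 0.0798 without the first 24 h shoot array, and the root value was -0.33 (SE 0.16, adjusted p = 0.526). FDH was also higher at 24 h than early in roots, by 0.92 (SE 0.14, adjusted p = 0.000946). The copper amine oxidase AT1G31710, here by its brighter probe set 246601_at, rose in shoots at 3 h by 1.67 (SE 0.16, adjusted p = 7.45e-06), from early signals of 98.8 and 97.3 at 0.5 h and 104 and 95.3 at 1 h to 301 and 334. Its other probe set gave 1.45 (SE 0.19, adjusted p = 0.000109). MGL (AT1G64660), the methionine gamma-lyase of methionine breakdown, did not pass at 3 h in either organ, with 0.51 (SE 0.24, adjusted p = 0.169) in shoots and -0.02 (SE 0.24, adjusted p = 0.985) in roots, and at 6 h it read 55.2 and 70.6 in shoots and 255 and 216 in roots. Both 6 h shoot arrays of MGL lay under its shoot means of 75.3 early and 110 at 3 h.

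Of 8 genes of the wider dark and sugar starvation list with a probe set of their own, 7 were higher at 3 h in shoots and 2 in roots, beside 9.6% and 2.15% of all probe sets, and 1 was lower in roots. The lower one was AT5G38710, a proline dehydrogenase, named after its value was seen. The list's median log2 difference was 0.89 in shoots and 0.54 in roots. The only call by limma among the 8 for shoots at 12 h against 24 h was a fall of AKINBETA1, a subunit of an energy-sensing kinase that was also named after its value was seen, and the median was 0.004. The list's members here are MCCA and AT4G33150.

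Among the members were 3 oxygenases known to hydroxylate and so inactivate jasmonic acid. JRG21 (AT3G55970, 251770_at) read 4.63 and 3.08 at 0.25 h, 8.86 and 8.13 at 0.5 h, 12 and 7.68 at 1 h, 111 and 138 at 3 h, 58.7 and 82 at 6 h, 89.1 and 84.1 at 12 h and 67.8 and 57.4 at 24 h in shoots. Its root arrays were 0.873 and 1.4 at 0.25 h, 11.9 and 13.4 at 0.5 h, 10.1 and 27.4 at 1 h, 9.12 and 24.7 at 3 h, 27.9 and 94.3 at 6 h, 12.8 and 7.42 at 12 h and 38.7 and 11.4 at 24 h. In shoots every array from 3 h on lay above every earlier one. The root arrays of 1 h, 3 h, 6 h and 24 h lay far apart within their groups. The shoot log2 difference at 3 h was 3.52 (SE 0.44, adjusted p = 7.18e-05) and at 24 h against early still 2.55 (SE 0.44, adjusted p = 0.00246). The root value at 3 h was 0.05 (SE 0.44, adjusted p = 0.977), and the root minus shoot difference was -3.46 (SE 0.63, adjusted p = 0.00449).

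AT2G38240 (267147_at) had shoot signals of 12.4 and 14 at 0.25 h, 17.4 and 34.3 at 0.5 h, 42 and 21.3 at 1 h, 348 and 313 at 3 h, 159 and 221 at 6 h, 94.8 and 65.3 at 12 h and 31 and 19.3 at 24 h. In roots they were 11.3 and 11.7 at 0.25 h, 30.3 and 70.1 at 0.5 h, 60.2 and 216 at 1 h, 38.8 and 103 at 3 h, 58.6 and 147 at 6 h, 14.5 and 23.8 at 12 h and 21.7 and 11 at 24 h. Shoots were highest at 3 h and roots at 1 h, where the arrays disagreed. The difference at 3 h was 3.51 (SE 0.53, adjusted p = 0.000295) in shoots and -0.20 (SE 0.53, adjusted p = 0.914) in roots. The difference between these, -3.71 (SE 0.74, adjusted p = 0.00841), had an adjusted p of 0.0509 without the first 3 h root array. The third enzyme, AT5G05600, read 67.3 and 72.9 at 0.25 h, 322 and 394 at 0.5 h and 251 and 254 at 6 h in roots, and 28 and 21.8, 58.4 and 220 and 188 and 199 in shoots. It passed neither test at 3 h, with 1.23 (SE 0.55, adjusted p = 0.148) in shoots and -0.61 (SE 0.55, adjusted p = 0.67) in roots. Its early shoot arrays lay far apart.

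**Figure D4:**
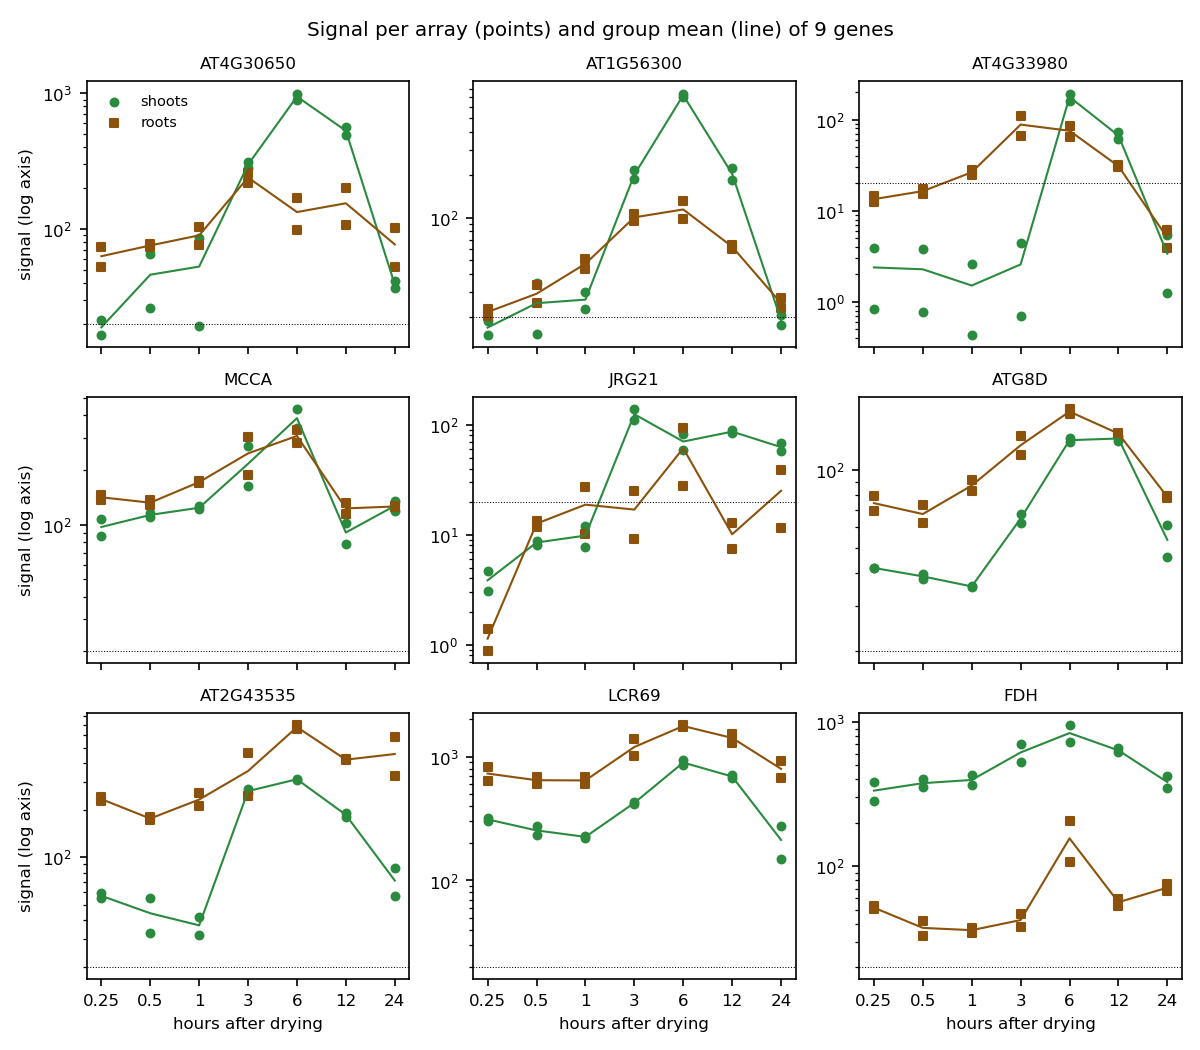
Signal on a log axis against hours after drying for 9 members, with a point for each array (green circles for shoots, brown squares for roots), a line through the group means and a dotted line at the floor of 20. Shoots and roots are both highest at 6 h for AT1G56300, MCCA, AT2G43535, LCR69 and FDH, while JRG21 in shoots is highest at 3 h, with 111 and 138, and AT4G30650 in roots is highest at 3 h.

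Lectins and other defence proteins gave 6 genes, all of them higher in roots than in shoots over the 5 times tested, where 45.9% of all probe sets were higher and 27.2% lower. AT2G43535 (260549_at), a small cysteine-rich protein of the scorpion toxin-like family, read 58.8 and 54.8 at 0.25 h, 32.9 and 55.1 at 0.5 h, 41.9 and 31.8 at 1 h, 257 and 272 at 3 h, 311 and 318 at 6 h, 181 and 192 at 12 h and 85.3 and 56.9 at 24 h in shoots. In roots it read 228 and 242 at 0.25 h, 211 and 256 at 1 h, 245 and 464 at 3 h, 656 and 695 at 6 h, 422 and 416 at 12 h and 583 and 328 at 24 h. Root arrays lay above the shoot arrays of the same time, except that the first 3 h root array was below both 3 h shoot arrays. The log2 difference at 3 h was 2.68 (SE 0.27, adjusted p = 1.01e-05) in shoots and 0.73 (SE 0.27, adjusted p = 0.168) in roots. The root minus shoot difference of these was -1.95 (SE 0.38, adjusted p = 0.00744). LCR69 (AT2G02100, 266119_at), a plant defensin, read 304 and 319 at 0.25 h, 939 and 854 at 6 h, 668 and 716 at 12 h and 277 and 148 at 24 h in shoots and 633 and 828, 1739 and 1797, 1534 and 1301 and 920 and 675 in roots. Its difference between 12 h and 24 h was 1.76 (SE 0.23, adjusted p = 0.000162) in shoots and 0.84 (SE 0.23, adjusted p = 0.13) in roots. At 3 h against early LCR69 was called higher in both organs, in roots by 0.88 (SE 0.20, adjusted p = 0.0225). That root call was lost without the second 3 h root array.

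Of the lectins, EULS3 (AT2G39050, 266170_at), a carbohydrate-binding protein known to act in stomatal closure, rose at 3 h in shoots by 1.21 (SE 0.15, adjusted p = 6.73e-05), from 44.9 and 51.4 at 0.5 h and 55.9 and 45.1 at 1 h to 121 and 112. In roots it read 30 and 47.9 at 0.25 h, 94.2 and 101 at 3 h and 125 and 175 at 6 h, with a difference at 3 h of 0.44 (SE 0.15, adjusted p = 0.138). JAL33 (AT3G16450) and JAL22 (AT2G39310), jacalin-related lectins, had root signals at 6 h of 2139 and 2228 and 682 and 1159. At 0.25 h their root arrays disagreed, at 551 and 1099 and at 161 and 527, the first array being the low one, behind root ratios of 2.65 and 2.67. In shoots at 3 h they differed from early by 0.92 (SE 0.24, adjusted p = 0.0138) and 0.79 (SE 0.26, adjusted p = 0.0478), with adjusted p-values of 0.152 and 0.334 without the first 3 h array, the call on JAL22 being lost with any of 17 arrays left out. The class III peroxidase AT5G64120, a cell wall enzyme, passed in neither organ at 3 h, with 0.80 (SE 0.46, adjusted p = 0.268) in shoots and 0.54 (SE 0.46, adjusted p = 0.639) in roots, and read 160 and 252 at 0.25 h and 575 and 482 at 6 h in roots.

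Members that act in protein turnover were ATG8D, AT1G02300 and AT3G47160, a group drawn up after the values were seen. Each passed at 3 h in both organs, beside 0.813% of all probe sets higher in both. The root call of each was lost without the second 3 h root array. ATG8D (AT2G05630, 265510_at), is a ubiquitin-like protein of the autophagosome membrane. Its shoot arrays read 41.9 and 41.8 at 0.25 h, 38 and 39.7 at 0.5 h, 35.5 and 35.6 at 1 h, 67.3 and 62.4 at 3 h, 128 and 133 at 6 h, 136 and 129 at 12 h and 61.3 and 46.2 at 24 h. The root ones read 69.6 and 79.3 at 0.25 h, 72.9 and 62.2 at 0.5 h, 91.4 and 82.6 at 1 h, 114 and 135 at 3 h, 171 and 164 at 6 h, 139 and 137 at 12 h and 77.9 and 79.5 at 24 h. In each organ the arrays at 3 h, 6 h and 12 h lay above all others. The log2 difference at 3 h was 0.77 (SE 0.12, adjusted p = 0.000433) in shoots and 0.68 (SE 0.12, adjusted p = 0.0052) in roots. Between 12 h and 24 h it was 1.28 (SE 0.14, adjusted p = 3.18e-05) in shoots and 0.79 (SE 0.14, adjusted p = 0.014) in roots. The adjusted p in roots was 0.117 at 3 h without the second 3 h array and 0.103 at 12 h without the first 24 h array. Of 10 autophagy genes measured, 9 were higher at 3 h in shoots and 1, ATG8D, in roots, beside 9.6% and 2.15% of all probe sets. ATG8D was at 12 h against 24 h also the only one of the 10 higher in either organ, and the median of the list was -0.11 in both.

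AT1G02300 (259441_at), a cathepsin B-like protease, read 23.3 and 24.4 at 0.25 h, 21.2 and 30.7 at 1 h, 164 and 152 at 3 h, 209 and 212 at 6 h, 85.1 and 77.7 at 12 h and 43.2 and 57.4 at 24 h in shoots. The root signals at these times were 25.8 and 25.1, 13.3 and 14.8, 30.8 and 44.9, 73.2 and 56.6, 43.1 and 39 and 22.2 and 29.6. Both organs were highest at 6 h. It rose at 3 h by 2.55 (SE 0.19, adjusted p = 8.1e-07) in shoots and 1.21 (SE 0.19, adjusted p = 0.00234) in roots. The root call had an adjusted p of 0.0696 without the second 3 h root array. AT3G47160, a RING finger protein of the kind that marks proteins for degradation, rose by 2.24 (SE 0.25, adjusted p = 2.43e-05) in shoots, from 84.8 and 41 at 0.5 h to 290 and 299 at 3 h. In roots it rose by 0.98 (SE 0.25, adjusted p = 0.0389), with an adjusted p of 0.359 without the second 3 h root array, and this call was lost with any of 14 arrays left out.

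Likely regulators numbered 4, of which 3 are described. AT4G14270, which carries the motif that binds poly(A)-binding protein and is related to ERD15, read 63.8 and 60.1 at 0.25 h, 304 and 294 at 3 h and 671 and 737 at 6 h in shoots and 291 and 320, 528 and 636 and 746 and 550 in roots. Its rise at 3 h was 1.91 (SE 0.40, adjusted p = 0.00369) in shoots and did not pass in roots, at 1.22 (SE 0.40, adjusted p = 0.114). AT1G70810, a C2-domain protein, rose at 3 h in shoots by 1.39 (SE 0.19, adjusted p = 0.00014), from 49.5 and 71.2 at 0.5 h to 161 and 137. The PLATZ zinc-finger factor AT1G76590 was higher at early times than at 24 h in shoots and did not pass at 3 h in either organ, with -0.16 (SE 0.35, adjusted p = 0.816) and 0.42 (SE 0.35, adjusted p = 0.629). Its difference at 24 h against early in shoots was -1.30 (SE 0.35, adjusted p = 0.0271), with an adjusted p of 0.231 without the second 24 h array.

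Enzymes and transporters outside these groups included AT5G01210, a BAHD-type acyltransferase, AT3G04000, a short-chain dehydrogenase, AT4G29700, of the nucleotide pyrophosphatase and phosphodiesterase family, and AT5G17700, a MATE efflux carrier. AT5G01210 rose at 3 h in shoots by 1.07 (SE 0.17, adjusted p = 0.000375), from 113 and 107 at 1 h to 217 and 251, and was at -0.22 in roots, a difference of -1.29 (SE 0.23, adjusted p = 0.00454). In roots it had been high since 0.5 h, at 190 and 209. AT3G04000 rose at 3 h in shoots by 1.77 (SE 0.20, adjusted p = 3.29e-05), and its root arrays at 6 h read 38.3 and 74.3. AT4G29700 differed at 12 h from 24 h in shoots by 2.09 (SE 0.33, adjusted p = 0.000729), with 207 and 250 against 62.6 and 42.8. AT5G17700 read 27 and 91.7 at 6 h, 65.4 and 84.4 at 12 h and 35.4 and 18.6 at 24 h in roots, and the root difference between 12 h and 24 h, 1.46 (SE 0.27, adjusted p = 0.0175), had an adjusted p of 0.191 without the second 24 h array.

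For 9 genes no role is given here. AT1G11210 (262452_at) had a pattern with a double rise in shoots, at 2.54 and 0.984 at 0.25 h, 23.1 and 24.9 at 0.5 h, 45.8 and 20.7 at 1 h, 13.7 and 16.3 at 3 h, 88.5 and 91.9 at 6 h, 29.8 and 29.2 at 12 h and 3.02 and 2.82 at 24 h. In roots it climbed without the dip, from 3.37 and 4.13 at 0.25 h over 22.4 and 27.2 at 0.5 h and 44.2 and 47.2 at 3 h to 73.1 and 71.3 at 6 h, with 32.3 and 39.8 at 12 h and 3.67 and 6.92 at 24 h. It was the only gene with a name whose root calls at 12 h against 24 h, 2.42 (SE 0.32, adjusted p = 0.00173), and at 24 h against early, -1.93 (SE 0.28, adjusted p = 0.00069), both held with any 1 array left out. The shoot values were 2.69 (SE 0.32, adjusted p = 7.32e-05) and -2.59 (SE 0.28, adjusted p = 5.48e-05). AT2G15960, with shoot signals of 121 and 214 at 0.25 h and 2261 and 2963 at 6 h, rose at 3 h in shoots by 1.84 (SE 0.35, adjusted p = 0.00183). AT1G07040 rose at 3 h by 1.86 (SE 0.12, adjusted p = 3.47e-07) in shoots and by 0.64 (SE 0.12, adjusted p = 0.00907) in roots. The root change was the smaller, the difference being -1.22 (SE 0.18, adjusted p = 0.000904). AT1G68500 read 32.7 and 25.9 at 0.25 h, 105 and 210 at 6 h and 24.8 and 24.4 at 24 h in roots. It was higher at 12 h than at 24 h by 2.06 (SE 0.30, adjusted p = 0.00321) there, with an adjusted p of 0.0501 without the second 12 h root array. AT3G10120 and AT1G01770 rose at 3 h in shoots by 0.94 (SE 0.19, adjusted p = 0.00329) and 0.76 (SE 0.15, adjusted p = 0.00226), with adjusted p-values of 0.0582 and 0.051 without the second 3 h array. In roots AT1G01770 was also higher at 3 h, by 0.73 (SE 0.15, adjusted p = 0.0122). The root calls on AT1G07040 and AT1G01770 were lost without the second 3 h root array. AT3G15630 read 96.3 and 151 at 0.25 h and 300 and 307 at 6 h in shoots and 263 and 176 and 539 and 364 in roots, and passed at 3 h in neither organ, with 0.87 (SE 0.49, adjusted p = 0.256) and 0.29 (SE 0.49, adjusted p = 0.848). AT1G21680 was higher at 12 h than at 24 h in shoots by 1.80 (SE 0.29, adjusted p = 0.000802) and stood at -0.35 in roots, a difference of -2.15 (SE 0.41, adjusted p = 0.00779).

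Besides the probe set of KIN2 and KIN1, 3 members are shared by neighbouring or similar genes. 254163_s_at, for AT4G24350 or AT4G24340 of the phosphorylase family, read 135 and 122 at 0.25 h, 508 and 481 at 3 h and 418 and 336 at 6 h in shoots and 22 and 56, 85.2 and 159 and 139 and 220 in roots. 253879_s_at, for the glycosyltransferases AT4G27570 or AT4G27560, was higher at 3 h than at 6 h in shoots, with 356 and 289 and 115 and 97.6. 264654_s_at, for the sugar transporters AT1G08900 or AT1G08890, read 30.9 and 28.1 at 0.25 h and 191 and 185 at 6 h in shoots, beside 14.3 and 34.5 and 83.2 and 66.8 in roots. Their calls in shoots at 3 h or 12 h were each lost with at least 1 array left out, with adjusted p-values of 0.0852 and 0.119 at 3 h for 254163_s_at without the first and 264654_s_at without the second 3 h shoot array, and 0.148 at 12 h against 24 h for 253879_s_at without the first 24 h shoot array.

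The 58 unnamed members held several of the largest values and were picked out after these were seen. 267364_at had the largest root ratio, 23.3, beside 21 in shoots. Its shoot arrays read 2.26 and 0.979 at 0.25 h, 1.02 and 0.159 at 0.5 h, 0.467 and 0.575 at 1 h, 16.2 and 15.5 at 3 h, 422 and 419 at 6 h, 322 and 334 at 12 h and 5.26 and 3.73 at 24 h. In roots it read 28.7 and 25.4 at 0.25 h, 24.4 and 15.4 at 0.5 h, 62.4 and 41.3 at 1 h, 196 and 201 at 3 h, 709 and 549 at 6 h, 503 and 767 at 12 h and 13.9 and 15 at 24 h. In each organ the arrays at 6 h and 12 h lay far above those at every other time. Its log2 difference between 12 h and 24 h was 5.69 (SE 0.27, adjusted p = 8.06e-09) in shoots and 5.25 (SE 0.27, adjusted p = 1.3e-07) in roots. At 3 h against early it was 2.84 (SE 0.23, adjusted p = 1.6e-06) and 2.57 (SE 0.23, adjusted p = 4.32e-05). All 4 calls were kept with any 1 array left out.

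257985_at stood out by a late maximum in shoots, with 15.5 and 15.5 at 3 h, 112 and 109 at 6 h, 634 and 569 at 12 h and 23.9 and 28.9 at 24 h, beside 48 and 48.1, 243 and 196, 208 and 190 and 17.8 and 17.7 in roots. It was higher at 12 h than at 24 h by 4.42 (SE 0.25, adjusted p = 4.74e-08) in shoots and 3.35 (SE 0.25, adjusted p = 5.46e-06) in roots. The opposite was seen in 252415_at and 253161_at, which were high at 6 h and lowest at 12 h in shoots. 252415_at read 974 and 1387 at 3 h, 865 and 1269 at 6 h, 17.6 and 10.8 at 12 h and 432 and 398 at 24 h, and 253161_at read 471 and 1312, 1577 and 2209, 52.5 and 45.8 and 759 and 570. Their shoot differences between 12 h and 24 h were -4.72 (SE 0.30, adjusted p = 1.66e-07) and -3.69 (SE 0.47, adjusted p = 0.000125). In roots the same differences were -0.25 (SE 0.30, adjusted p = 0.899) and 0.11 (SE 0.47, adjusted p = 0.989), and the root minus shoot differences were 4.47 (SE 0.43, adjusted p = 5.81e-05) and 3.80 (SE 0.67, adjusted p = 0.00479). 267461_at had the largest shoot ratio, 51.2, from 44.6 and 90.6 at 0.25 h to 3261 and 3664 at 6 h, while its root arrays read 1165 and 1092 and 3288 and 2363. The 1 member lower at 3 h in roots was 247794_at, at -0.80 (SE 0.16, adjusted p = 0.0112), which was higher there in shoots, at 1.53 (SE 0.16, adjusted p = 1.62e-05). The root call had an adjusted p of 0.137 without the first 3 h root array, and the difference between the organs was -2.33 (SE 0.23, adjusted p = 7.23e-05).

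The root change was below the shoot change in 74 of 104 members at 3 h against early and in 81 at 12 h against 24 h. For 3 h against early it was above in 6 members and below in 25 by limma, beside 3.97% and 3.21% of all probe sets, with a median difference of -0.45 against 0.09 over all. Without the first 3 h root array 15 were below, and the 6 became 3 without it and 1 without the second 3 h root array or the first 3 h shoot array, and 2 without the second. For 12 h against 24 h the counts were 3 above and 23 below, beside 2.07% and 2.56%, with a median of -0.67 against 0.07. Leaving out the second 12 h array of either organ, the second 24 h shoot array or the first 24 h root array gave 15 below.

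**Figure D5:**
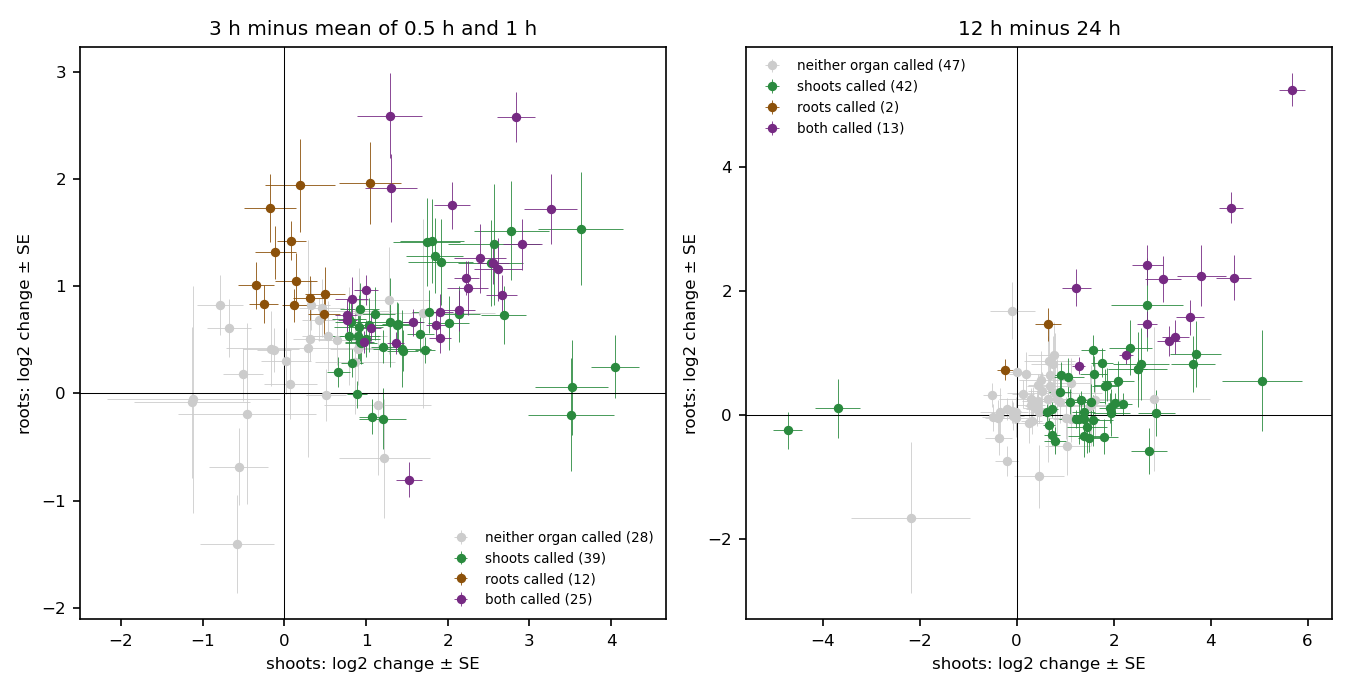
Log2 difference in shoots (horizontal) against roots (vertical) of each of the 104 members with the standard error of limma's fit, at 3 h against early (left) and 12 h against 24 h (right), coloured by the organs in which it was called in either direction. Most points lie to the right of 0 and nearer the horizontal axis than the vertical, and 267364_at lies at 5.69 in shoots and 5.25 in roots on the right.

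Levels over the 5 times were higher in roots for 58 members and lower for 28, near the 45.9% and 27.2% of all probe sets. The rule kept only probe sets with a 6 h mean of at least 50 in both organs, which bears on this comparison. The median root minus shoot difference was 0.50 against 0.18 over all. Quantile normalization moved the latter to 0.07. Among the named genes JAL33 was the furthest towards roots, at 3.16 (SE 0.12, adjusted p = 3.76e-12), and CCL and AT2G15960 were furthest towards shoots, at -3.79 and -3.67.

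Beside the 838 probe sets that met the rule in shoots only, and the 293 that met it in roots only, the members' shares called are given here as a description. In roots at 3 h, 34.6% of members, 10.1% of the shoot-only set and 19.8% of the root-only set were higher. The root shares at 12 h against 24 h were 14.4%, 2.27% and 4.44%. In shoots the shares at 3 h were 61.5%, 70.8% and 22.5%, and at 12 h 51.0%, 45.0% and 12.6%. These differences between sets were not tested.

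Members did not all share 1 profile over the 20 arrays of both organs outside the rule. Over the 20 arrays, the correlation of a member with the mean profile of all members ran from -0.40 to 0.94 with a median of 0.61, given as a description over arrays that share libraries and organs. It was over 0.5 for 66 members and under 0 for 12. This correlation takes in level differences between the organs as well as the time course, and the 2 were not separated. CCL, called higher at 3 h in both organs, had a correlation of 0.05, beside a root minus shoot level difference of -3.79. The probe sets outside the set whose profile was most like that mean were 263065_at, AT1G02260, 258735_at, AT4G05150 and 263249_at, with correlations of 0.935, 0.914, 0.904, 0.904 and 0.903. Their root ratios at 6 h were 1.41, 1.03, 1.38, 0.799 and 1.25, so they missed the limit in roots.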

How the data were processed

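RNA of 28 samples was measured on Affymetrix ATH1 arrays. The deposited intensity values are linear signals per probe set made by the authors with MAS5, per the submitters' processing notes, and its version is not given in the sources used here. Each array was already scaled to a like trimmed mean, and its median signal was 36.6 to 40.3 in shoots and 43.1 to 46.7 in roots. The precision is limited by the number of arrays, 2 per group. The members, gene lists and roles were chosen with earlier results of these data known.

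From the deposited signals, log2(signal + 1.95) was fitted with limma 3.58.1 in R 4.3.3 (lmFit, eBayes with trend) for 22746 probe sets, leaving out 64 control probe sets. The added 1.95, at the 10th percentile of the signals, makes fold changes of low genes too small. The fit took 20 arrays as 10 groups with 10 residual degrees of freedom and left out the 8 arrays at 0.25 h and 6 h, which chose the members. Tests were two-sided with Benjamini-Hochberg adjustment over all probe sets at 0.05, and an adjusted p in the text is limma's. SE is the standard error of the fitted difference. Tested on simulated data for 12 h against 24 h in shoots, with 200 of 22746 probe sets changed, the fit found 66% of 2-fold and 94% of 4-fold changes, and 1.2% of its 162 calls were false. The changed probe sets were drawn from those with a mean signal of at least 50. The noise was normal and independent between arrays, and nothing else changed. These rates therefore need not hold for weaker probe sets or for the measured data.

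Of all probe sets, 13513 carried 1 gene in the platform annotation, 503 several and 8730 none, and symbols come from a TAIR10.1 gene table that matched 13436 of the 13513. Of the members, 10 have a suffix (_s_at or _x_at) that marks probes shared between similar transcripts. Genes were named by these rules: the 20 with the largest smaller ratio of the 2 organs, the 5 largest changes each way in each test, every member in a gene list, and the 3 probe sets on each side of the fold limit. A further 4 members with several genes, and unnamed probe sets, were picked after their values were seen. The grouping by role was also made then. Signals of different probe sets were not compared with each other. Replicate numbers showed no clear pairing of the arrays, which does not exclude one. Over 45 pairs of groups, deviations of equal numbers had a median correlation of 0.006. The correlation was -0.42 between shoots at 0.5 h and 1 h, and -0.09 to 0.14 for the other pairs. Alternatives were another pseudocount, a filter on low signals, quantile normalization, no trend, array weights, all 28 arrays, each organ alone, the replicate block and each array left out in turn. Promoter motifs were not counted, and no sequence is printed. The values of 1 member with a gene name are not reported here.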

Additional observations from a re-analysis of the deposited data

Results flagged for a closer look

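For 15 of the 41 named genes the change from early to 3 h differed between roots and shoots by limma's test of that difference. The value tested was the root change minus the shoot change. Of all probe sets, 3.97% had a larger and 3.21% a smaller change in roots by this test. Among the named genes it was larger in roots for AT1G11210 (1.62 on the log2 scale) and AT1G21680 (1.42). It was smaller in roots for EULS3 (-0.775), AT4G33150 (-0.909), AT1G31710 (-1.12), AT4G30660 (-1.15), AT1G07040 (-1.22), AT3G47160 (-1.26), AT5G01210 (-1.29), AT1G02300 (-1.34), AT4G29700 (-1.44), AT1G56300 (-1.53), AT2G43535 (-1.95), JRG21 (-3.46) and AT2G38240 (-3.71). Of these, JRG21, AT2G43535, AT4G30660, AT5G01210, AT1G07040 and AT4G33150 passed with any 1 array left out.

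For 7 of the 41 named genes the difference between 12 h and 24 h was smaller in roots than in shoots by the same test, and for 0 larger. Of all probe sets, 2.56% had a smaller and 2.07% a larger difference in roots. The 7 genes were FDH (-1.06), AT1G70810 (-1.21), AT5G39410 (-1.29), AT2G21130 (-1.76), AT1G56300 (-2.02), AT4G30660 (-2.03) and AT1G21680 (-2.15). AT1G56300, AT2G21130, AT5G39410, AT4G30660 and AT1G21680 passed with any 1 array left out. The 2 comparisons share no times, but all tests share 1 estimate of the spread.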

How the results depend on the processing

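The set itself moved with its limits: a fold of 3 left 29 members, a fold of 1.5 gave 347, and asking both 6 h arrays to be 2-fold above both 0.25 h arrays left 44, while leaving out 1 array gave 91 to 126. With 24 h as the reference 75 probe sets met the rule, 49 of them members.

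Counts of members moved as follows. At 3 h against early in shoots, 1 member was lower with the filter, with all 28 arrays and with each organ alone. In roots 2 were lower with each organ alone and with array weights, and 3 without the 4 early shoot arrays. At 24 h against early in shoots, 8 were lower without the trend, 15 were higher and 6 lower with each organ alone, and 15 higher and 8 lower with array weights. In roots 21 were higher with array weights and 16 lower without the 4 early shoot arrays. At 12 h against 3 h in roots, 3 were lower without the trend and 20 without the 4 early shoot arrays, which also gave 37 members with a smaller root than shoot change at 12 h against 24 h. The cause of these shifts was not tested. Shares of all probe sets called under the same settings are not given beside these counts or those that follow. The shifts are therefore not read as particular to the members.

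With 1 array left out, members higher at 3 h against early were 48 to 66 in shoots and 6 to 42 in roots, and members lower 0 to 3 and 0 to 2. At 12 h against 24 h, higher were 41 to 57 in shoots and 5 to 17 in roots, and lower 2 to 3 and 0 to 1. At 24 h against early, higher were 10 to 25 and 1 to 13, and lower 1 to 17 and 3 to 12. At 12 h against 3 h, higher were 15 to 25 and 1 to 4, and lower 11 to 22 and 0 to 12. Root changes above shoot changes were 1 to 7 at 3 h and 2 to 4 at 12 h, and below them 15 to 29 and 15 to 28. Root levels were higher in 57 to 63 members and lower in 27 to 30.

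With the replicate block, members higher and lower were 62 and 0 in shoots at 3 h against early, 49 and 2 at 12 h against 24 h, 30 and 1 in roots at 3 h, and 11 and 0 at 12 h. The block kept 153 of 170 calls on named genes, and no call reversed under any alternative. Whether the numbers pair the arrays is not known, so the 17 calls lost to the block are less certain. Limits are 2 arrays per group, uncertain early shoot labels and, with untreated plants not analysed here, a time of day that cannot be told apart from time after drying.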
